A study of Rattus norvegicus with 24 samples.

Results

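The genes described here encode products that colonic goblet cells store and secrete: the lectins Itln1 (intelectin 1), Reg4 (regenerating family member 4) and Zg16 (zymogen granule protein 16), the trefoil peptide Tff3, the protease inhibitor Spink4, the mucin Muc2 and the disulfide isomerase Agr2. They were chosen by gene symbol from a list of 7 names, and the list was drawn up with the differences between diets in these arrays already known, so differences between diets are given as descriptions without a test. Of the 7 names, 6 had a probe, 1 probe each. Of the 22523 probes on the array, 13793 carried 1 gene symbol in the platform annotation, for 13337 genes. No probe carried the symbol Muc2 in the platform annotation used here, and Muc2 was not analysed here. All 6 probes were detected on 24 of 24 arrays, and therefore all 6 passed the filter on low signal that left 10193 probes for testing.

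Goblet cells are secretory cells of the intestinal epithelium that release mucus. Muc2 is the gel-forming mucin of colonic mucus, Tff3 is secreted together with it and supports repair of the epithelium, and Agr2 acts in the endoplasmic reticulum in the folding of mucin. Zg16 binds the cell wall of Gram-positive bacteria and is an abundant component of mouse colonic mucus. Itln1 binds glycans on the surface of microbes, Reg4 belongs to the family of C-type lectin-like regenerating proteins, and Spink4 is a Kazal-type inhibitor of serine proteases. The resistin-like molecule Retnlb is a further secreted product of goblet cells, and the transcription factors Atoh1, Klf4 and Creb3l1 are known to act in goblet cell formation or maturation.

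Colonic epithelial cells came from Sprague Dawley rats aged 8 months, which were born as controls or with intra-uterine growth retardation (IUGR) and ate chow or a high-fat diet. The control groups were CND on chow (6 samples) and CHFD on high-fat diet (5 samples), and the IUGR groups were RND on chow (6 samples) and RHFD on high-fat diet (3 samples). Cells of the proximal and distal colon were shaken loose after exposure to EGTA and EDTA, so a sample holds whatever cells this step released, and the labels name no sorting. The 24 arrays lay on 2 chips, and where 2 arrays carry 1 title number (RHFD 3A, 21B and 25B, and CHFD 10B) their mean is 1 sample. The labels do not say whether samples are separate animals, so p-values measure only the spread between these samples, which may be technical. Chip and title letter cannot be told apart among CND samples, which carry A on chip 1 and B on chip 2.

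Median raw signal per array was between 92 and 112, and between 8303 and 9872 probes were detected on an array. All 8 tested probes of epithelial markers were detected, and 0 of them passed the threshold in either diet comparison. Of all tested probes, 1.3% passed in control rats and 0.883% in IUGR rats, so this count does not show equal epithelial content. Levels below are background-corrected, quantile-normalized log2 intensities, differences are log2 differences from limma with a standard error (SE), and a probe is called when its p, adjusted by the Benjamini-Hochberg method over all 10193 probes, is under 0.05. Probes differ in how brightly they hybridize, so levels are compared between samples for 1 probe and not between genes. In RNA from a mixture of cells, fewer goblet cells and less RNA per goblet cell cannot be told apart.

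The promoters of the genes whose levels differed most between diets, and of Tff3, are shown with short sequence motifs of intestinal and goblet cell transcription factors in capitals. RefSeq promoters on the GRCr8 assembly were available for 5 of the 6 genes, Zg16 was absent from that table, and the 250 bases before the start are printed 5′ to 3′ on the strand of the gene.
Itln1, chr13:86480298-86480547, plus strand: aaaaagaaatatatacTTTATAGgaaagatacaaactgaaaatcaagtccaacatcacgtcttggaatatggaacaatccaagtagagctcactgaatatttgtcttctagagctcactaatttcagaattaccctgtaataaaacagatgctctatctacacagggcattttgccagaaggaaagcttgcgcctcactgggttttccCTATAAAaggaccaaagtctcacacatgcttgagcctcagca
Spink4, chr5:60848810-60849059, plus strand: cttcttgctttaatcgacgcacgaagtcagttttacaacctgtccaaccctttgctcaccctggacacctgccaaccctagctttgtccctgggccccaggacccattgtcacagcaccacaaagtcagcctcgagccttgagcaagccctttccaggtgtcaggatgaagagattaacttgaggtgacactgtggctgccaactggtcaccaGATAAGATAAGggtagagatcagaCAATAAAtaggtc
Reg4, chr2:188507434-188507683, plus strand: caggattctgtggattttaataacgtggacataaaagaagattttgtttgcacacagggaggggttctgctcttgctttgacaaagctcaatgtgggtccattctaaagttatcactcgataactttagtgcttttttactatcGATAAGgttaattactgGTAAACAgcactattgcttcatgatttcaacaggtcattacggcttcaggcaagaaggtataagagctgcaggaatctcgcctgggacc
Tff3, chr20:9199334-9199583, minus strand: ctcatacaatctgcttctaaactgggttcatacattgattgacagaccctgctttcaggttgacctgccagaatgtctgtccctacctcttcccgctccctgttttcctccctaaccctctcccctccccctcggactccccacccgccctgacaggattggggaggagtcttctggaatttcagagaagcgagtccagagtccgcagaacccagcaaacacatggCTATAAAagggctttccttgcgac

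The search covered both strands for the TATA box (TATAAA), the CDX motif (TTTATNG), the GATA motif (GATAAG), the forkhead motif (TGTTTAC), the STAT6 motif (TTC and GAA with 4 bases between them) and an E-box of the ATOH1 type (CAGCTG). In the Itln1 window a TATA box began 41 bases before the start, inside a CDX match on the opposite strand, and a second overlapping pair of these motifs lay 234 bases before it. The Tff3 window held the same overlapping pair 23 bases before the start. Spink4 had a pair of overlapping GATA matches 37 and 32 bases before the start shown and a CDX match at 13 bases, while its other annotated start, with a window from 60839669 to 60839918, had none of the 6 motifs. Reg4 had a GATA match at 106 bases and a forkhead match at 89 bases on the opposite strand, and the Agr2 window, which is not printed, had 1 GATA match at 231 bases.

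Over 33469 promoter windows of the same length, 12.9% held the TATA box, 10.1% the CDX motif, 6.18% the GATA motif, 3.21% the forkhead motif, 6.25% the STAT6 motif and 12% the E-box. None of the 6 windows of these genes held the STAT6 motif or the E-box as spelled. The windows of Itln1 and Spink4 lie inside their annotated gene spans, which begin at 86464641 and 60811899. Bases before those positions were not searched. A match describes the letters and does not show that a factor binds there.

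Itln1 (probe ILMN_1349778, GRCr8 chromosome 13, 86464641 to 86490655) had low levels on chow and high levels on high-fat diet. In CND the 6 samples had levels from 7.71 to 10.61 with a median of 8.23, and in CHFD the 5 samples read 13.30, 14.37, 14.02, 14.27 and 13.83. In RND the 6 samples ranged from 7.79 to 12.27 with a median of 9.92, and the 3 RHFD samples read 13.84, 14.41 and 13.64. All 8 high-fat samples lay above all 12 chow samples, and the highest chow sample, RND 37B, was 1.03 below the lowest high-fat sample, CHFD 10B. The group means were 8.84 ± 1.26 (SD, n = 6) in CND, 13.96 ± 0.42 (n = 5) in CHFD, 9.93 ± 1.47 (n = 6) in RND and 13.97 ± 0.40 (n = 3) in RHFD.

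The log2 difference of Itln1 between CHFD and CND was 5.11 (SE 0.55, 95% confidence interval 3.97 to 6.24), or 34.4-fold. Between RHFD and RND it was 4.04 (SE 0.62, interval 2.75 to 5.33), or 16.5-fold. The difference was close to this on each chip, with 5.11 and 4.91 in control rats and 4.22 and 3.86 in IUGR rats on chips 1 and 2. Itln1 was the 1 called member of 6 in each diet comparison, where the share of all tested probes called was 1.3% (control) and 0.883% (IUGR), and nothing is read from this count because the diet differences were in view when the genes were chosen. The share of probes whose groups did not overlap was 1.71% in control rats and 5.99% in IUGR rats.

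**Figure D1:**
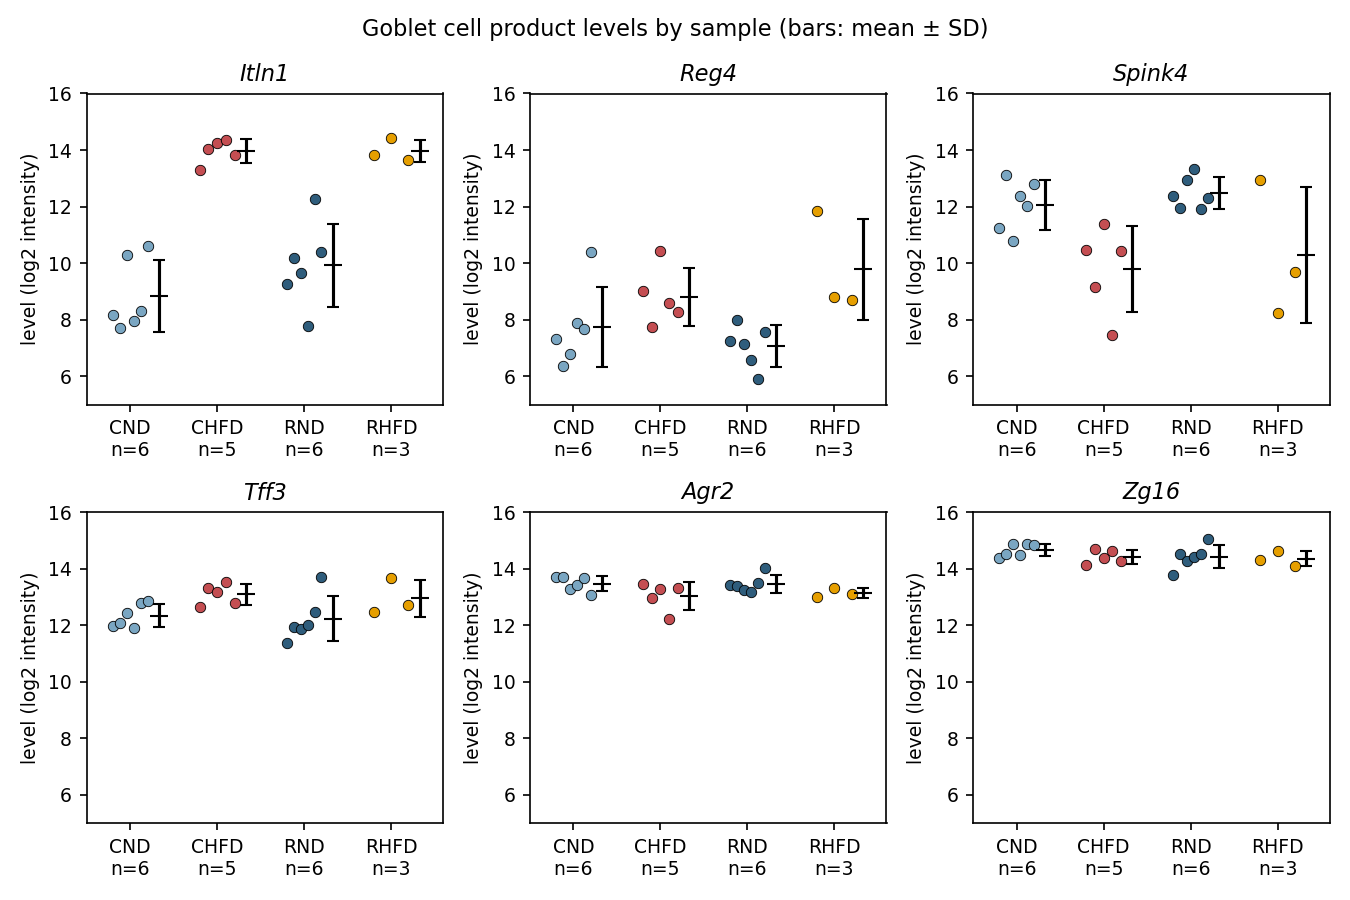
Log2 intensity (y axis) of the 6 genes in each of the 20 samples (points) by group (x axis), with bars for the mean ± SD. Itln1 is at 13.30 or above in all high-fat samples and at 12.27 or below in all chow samples, while the groups overlap for Tff3 and Zg16.

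Spink4 (probe ILMN_1365120, chromosome 5, 60811899 to 60860823) went the other way, with lower levels on high-fat diet in most samples. In CND its 6 levels ranged from 10.80 to 13.11 with a median of 12.19, and in CHFD the samples read 10.48, 7.45, 9.17, 11.40 and 10.44. In RND the range was 11.93 to 13.32 with a median of 12.33, and in RHFD the samples read 12.93, 8.25 and 9.70. Of the 8 high-fat samples, 6 lay below all 12 chow samples, and the exceptions were CHFD 28B at 11.40 and RHFD 21B at 12.93. The lowest level, 7.45, was in CHFD 4A.

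The log2 difference of Spink4 was -2.26 (SE 0.64, interval -3.58 to -0.94) between CHFD and CND and -2.18 (SE 0.73, interval -3.68 to -0.67) between RHFD and RND. In control rats it was -0.93 on chip 1 and -3.39 on chip 2, and in IUGR rats -2.09 and -2.26. Without RHFD 21B the difference in IUGR rats was -3.50, without RHFD 25B it was -1.15, and without CHFD 4A the difference in control rats was -1.69.

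Reg4 (probe ILMN_1366933, chromosome 2, 188507684 to 188521990) had higher levels on high-fat diet in IUGR rats, and in control rats the groups overlapped. In CND its 6 levels ranged from 6.37 to 10.39 with a median of 7.51, and in CHFD the samples read 9.004, 8.61, 7.73, 10.41 and 8.27. In RND the range was 5.91 to 8.01 with a median of 7.20, and in RHFD the samples read 11.85, 8.80 and 8.71. The RHFD and RND samples did not overlap, whereas in control rats CND 38B, at 10.39, lay above 4 of the 5 CHFD samples and just below CHFD 28B at 10.41. Of all tested probes, 5.99% had RHFD and RND samples that did not overlap, and 1.71% had CHFD and CND samples that did not.

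The log2 difference of Reg4 was 2.71 (SE 0.69, interval 1.29 to 4.12) between RHFD and RND and 1.06 (SE 0.60, interval -0.18 to 2.31) between CHFD and CND. The difference in control rats turned with the chip, with 2.41 on chip 1 and -0.23 on chip 2, whereas in IUGR rats it was 2.40 and 3.02. Without RHFD 21B the difference in IUGR rats was 1.68, and without CND 38B the difference in control rats was 1.61.

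RHFD 21B was the sample with the highest Reg4 level of all 20 and, among high-fat samples, the highest Spink4 level. Its 2 arrays, on different chips, gave 11.87 and 11.82 for Reg4 and 13.06 and 12.80 for Spink4. CHFD 28B and CND 38B, which had the next highest Reg4 levels, had Spink4 levels of 11.40 and 12.82. Arrays with the same title number differed by at most 0.34 for any of the 6 genes.

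**Figure D2:**
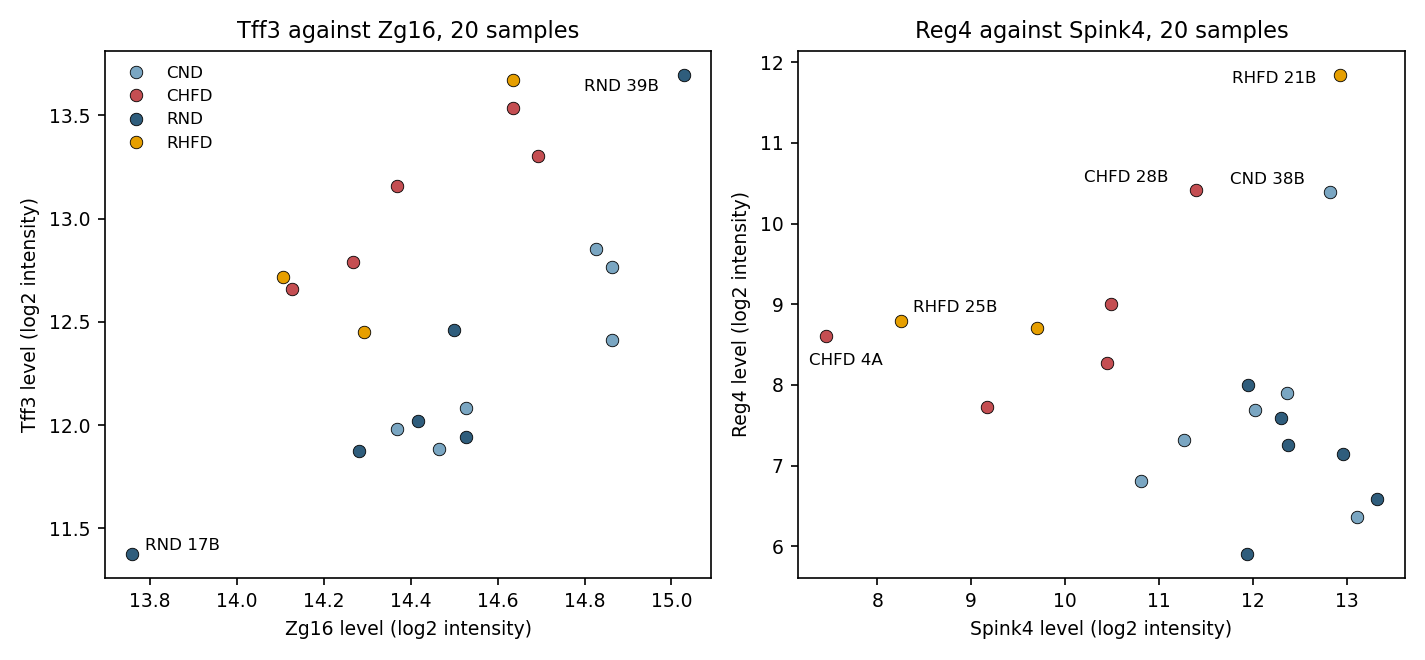
Log2 intensity of Tff3 against Zg16 (left) and of Reg4 against Spink4 (right) in 20 samples, coloured by group. Tff3 and Zg16 are high together and low together within chow groups, and RHFD 21B stands at 11.85 for Reg4 and 12.93 for Spink4.

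Tff3 (probe ILMN_1374680, chromosome 20, 9194623 to 9199333) had somewhat higher levels on high-fat diet, and all groups overlapped. In CND it ranged from 11.89 to 12.85 and in RND from 11.38 to 13.70, while in CHFD the samples read 12.66, 13.53, 13.30, 13.16 and 12.79. The 3 RHFD samples read 12.45, 13.67 and 12.72. The log2 difference was 0.75 (SE 0.28, interval 0.16 to 1.34) in control rats and 0.72 (SE 0.32, interval 0.05 to 1.38) in IUGR rats. None of the 8 high-fat samples lay above all 12 chow samples, because RND 39B, at 13.70, was the highest of the 20.

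Agr2 (probe ILMN_1352638, chromosome 6, 58435908 to 58456678) had levels between 12.21 and 14.04 over all 20 samples. It ranged from 13.05 to 13.72 in CND and from 13.19 to 14.04 in RND, and the CHFD samples read 13.46, 12.21, 12.95, 13.28 and 13.30. The RHFD samples read 12.99, 13.31 and 13.09. The log2 difference was -0.42 (SE 0.20, interval -0.83 to -0.01) in control rats and -0.32 (SE 0.22, interval -0.79 to 0.14) in IUGR rats. Of the 8 high-fat samples, 3 lay below all chow samples, and CHFD 4A, the lowest, was also the lowest for Spink4.

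Zg16 (probe ILMN_1366988, chromosome 1, 191088248 to 191090605) was among the brightest probes of the array, with a median rank of 19 of 22523 and a raw intensity between 13109 and 33959. The highest raw intensity on any array was between 34922 and 44386, so a compression of differences near the top of the scale was not tested. Its level ranged from 14.37 to 14.86 in CND and from 13.76 to 15.03 in RND, and the CHFD samples read 14.13, 14.64, 14.69, 14.37 and 14.27. The RHFD samples read 14.29, 14.64 and 14.11, all within the range of RND. The log2 difference was -0.24 (SE 0.17, interval -0.58 to 0.10) in control rats and -0.07 (SE 0.19, interval -0.46 to 0.31) in IUGR rats.

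**Figure D3:**
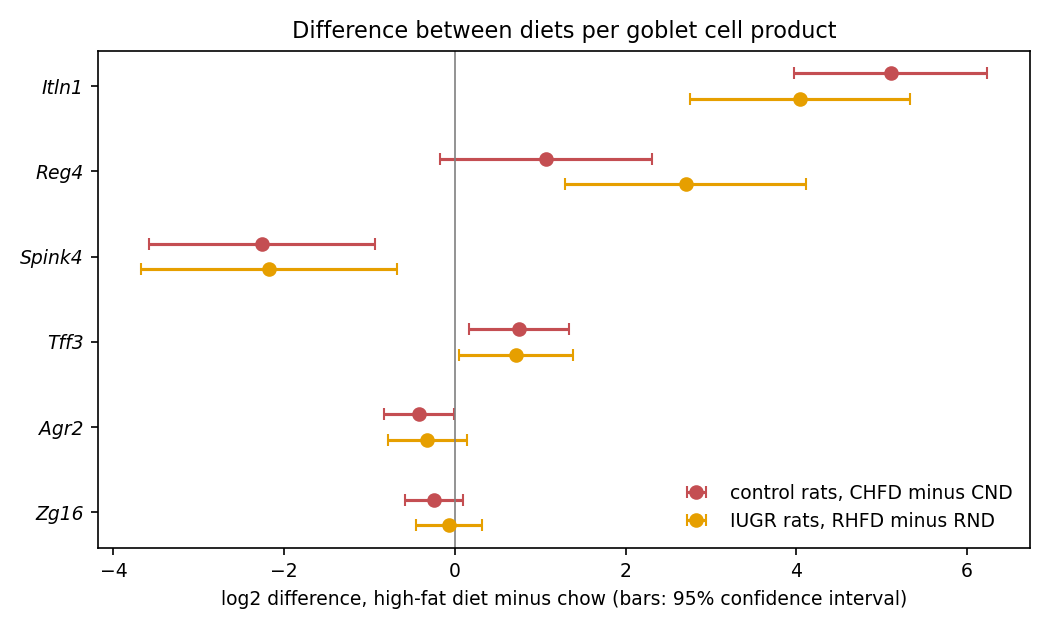
Log2 difference between high-fat diet and chow (x axis) for each gene (y axis), with 95% confidence intervals as bars, coloured by birth status. Itln1 lies near 5.11 and 4.04 and Spink4 near -2.26 and -2.18. The intervals of Zg16 in both, of Reg4 in control rats and of Agr2 in IUGR rats span 0.

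Birth status was compared next, on chow (RND against CND) and on high-fat diet (RHFD against CHFD). These comparisons share samples with the diet comparisons. On chow, Itln1 was higher in RND by 1.09 (SE 0.53, interval 0.002 to 2.17), with an unadjusted p of 0.0496 and an adjusted p of 0.412 in limma. The samples of these groups overlapped. The differences of the other genes on chow were -0.67 for Reg4 (interval -1.86 to 0.52, adjusted p = 0.656), 0.41 for Spink4 (interval -0.86 to 1.68, adjusted p = 0.815), -0.10 for Tff3 (interval -0.66 to 0.46, adjusted p = 0.909), -0.01 for Agr2 (interval -0.40 to 0.38, adjusted p = 0.983) and -0.23 for Zg16 (interval -0.56 to 0.09, adjusted p = 0.558). In limma 0 of the 6 genes and 0 of all 10193 probes were called on chow, which is 0% of probes, and 1235 probes had an unadjusted p under 0.05.

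On high-fat diet the difference between RHFD and CHFD was 0.02 for Itln1 (SE 0.64, interval -1.30 to 1.35), 0.98 for Reg4 (interval -0.48 to 2.43) and 0.49 for Spink4 (interval -1.06 to 2.04). It was -0.13 for Tff3 (interval -0.82 to 0.55), 0.08 for Agr2 (interval -0.39 to 0.56) and -0.07 for Zg16 (interval -0.47 to 0.33). All 6 had an adjusted p of 1.0 in limma. Of all probes 1, or 0.00981%, was called, and 106 had an unadjusted p under 0.05. The intervals were wide, since the 3 RHFD samples limit them.

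Whether the diet difference itself differed by birth status was tested as the interaction. It was -1.07 for Itln1 (SE 0.83), 1.64 for Reg4 (SE 0.91), 0.08 for Spink4 (SE 0.97), -0.03 for Tff3 (SE 0.43), 0.10 for Agr2 (SE 0.30) and 0.17 for Zg16 (SE 0.25). In limma the adjusted p ranged from 0.972 to 0.991 over these 6 genes, and 0 of 10193 probes were called, or 0%, with 413 at an unadjusted p under 0.05. The larger Reg4 difference in IUGR rats than in control rats is therefore not shown to depend on birth status.

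Whether the genes varied together between samples on the same diet was examined in the 12 chow samples, after subtraction of the mean of each birth group. The chip effect was left in. Of the 15 pairs, Tff3 and Zg16 were correlated, with Pearson's r = 0.907 (two-sided permutation test, adjusted p = 0.0009) and Spearman's rho = 0.89 (permutation test, adjusted p = 0.0033). Without the 2 samples farthest from the median of Tff3, r was 0.876. On chip 1 r was 0.930 over 6 samples (exact permutation test, adjusted p = 0.25), and on chip 2 it was 0.987 over 6 samples (exact permutation test, adjusted p = 0.0833).

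The other 14 pairs had an adjusted p of at least 0.563 for Pearson's r in the permutation test. Itln1 and Spink4, which differed in opposite directions between diets, had r = -0.46 among chow samples (permutation test, adjusted p = 0.563). RND 39B had the highest Tff3, Agr2 and Zg16 levels of the RND group, 13.70, 14.04 and 15.03, while RND 17B had the lowest Tff3 and Zg16 levels, 11.38 and 13.76.

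Other genes of the goblet cell were described from lists that were also drawn up with earlier results known. Calls and adjusted p-values between diets for genes of these and the later lists are therefore descriptions and not independent tests. Of 10 tested genes for other goblet secreted products, 2 were called higher and 1 lower on high-fat diet in control rats, and 2 were called higher in IUGR rats. The share of all tested probes called was 1.3% in control rats and 0.883% in IUGR rats. The median difference of the 10 was 0.09 in control rats and 0.34 in IUGR rats, beside medians of -0.002 and -0.004 over all tested probes. The called genes were the resistin-like molecules Retnla and Retnlb and, in control rats, Prap1, with -0.87 (limma adjusted p = 0.0233). Retnla was detected on 21 of 24 arrays, with 5 of 6 in CND, 4 of 6 in RND and all 12 on high-fat diet. Its mean log2 levels were 5.47 in CND and 6.25 in RND against 12.99 in CHFD and 13.25 in RHFD, so its differences rest in part on undetected chow levels. Which cells held the Retnla RNA was not tested. Retnlb was detected on 0 of 6 CND and 2 of 6 RND arrays and on all 12 high-fat arrays. Through the high-fat arrays Retnlb passed the filter on low signal, so its calls are descriptions and not tests. Its mean level was 11.53 in CHFD, at least 102-fold above the detection floor in CND, and no size is given for IUGR rats, where the means were 5.15 in RND and 11.67 in RHFD. For a probe detected on no chow array, such a bound sets the high-fat mean against the higher, on each chow array, of the probe's own level and the lowest level of any detected probe. Clca1, a metalloprotease secreted with mucus, had differences of 0.98 (limma adjusted p = 0.325) and 1.75 (adjusted p = 0.0623).

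No tested goblet cell transcription factor was called. Of the 9 that were tested, 0 passed in either diet comparison in limma, beside 1.3% and 0.883% of all probes. Their median differences were -0.12 and -0.06. Spdef and Cdx1 of this list were not among the tested genes, and Foxa1 and another probe of Foxa2 were detected on no array. Klf4 had differences of -0.13 (adjusted p = 0.947) and 0.70 (adjusted p = 0.464). Atoh1, which directs secretory fate, had differences of 0.03 and -0.06, Xbp1, which acts in the unfolded protein response, -0.09 and -0.05, and Creb3l1 -0.18 and -0.66 (adjusted p = 0.884 and 0.34). Of 22 tested genes of the secretory machinery list, 0 were called, beside 1.3% and 0.883% of all probes, with median differences of -0.18 and -0.12. That list held mucin glycosyltransferases, disulfide isomerases and exocytosis genes, and also channels, transporters, proteases and Creb3l1, which stands in both lists. The lectin-like relatives Reg3b and Reg3g had 0 calls in limma. Reg3b had differences of 1.48 (adjusted p = 0.661) and -1.61 (adjusted p = 0.689), and Reg3g of 2.76 (adjusted p = 0.071) and 1.10 (adjusted p = 0.742).

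**Figure D4:**
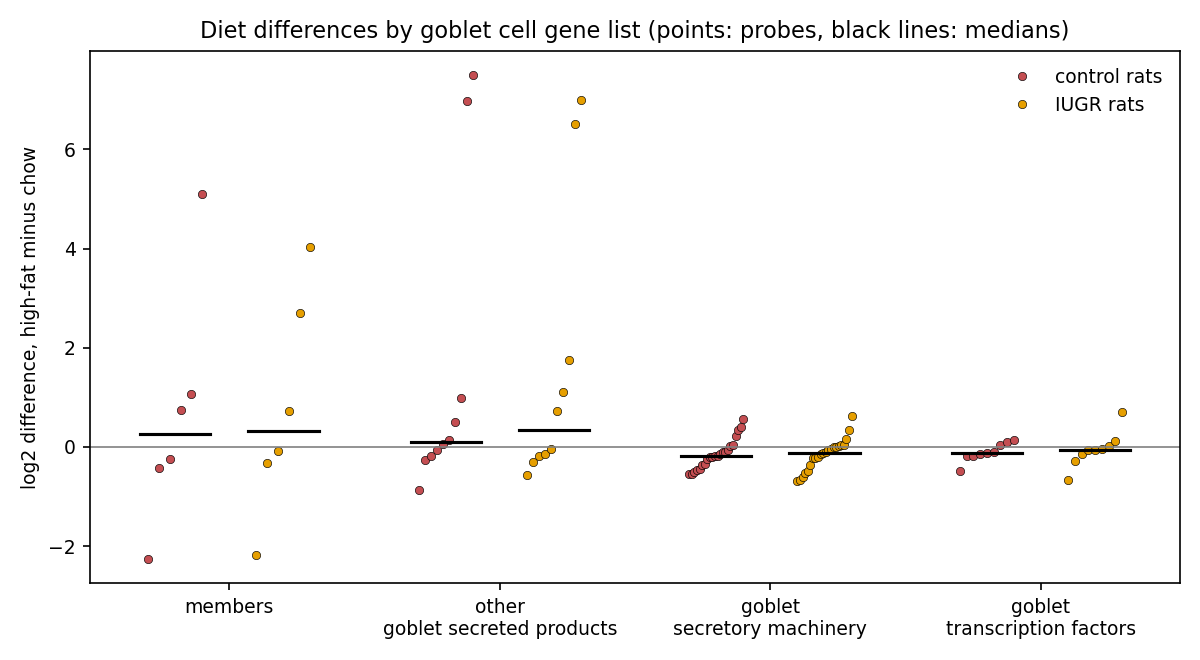
Log2 difference between high-fat diet and chow (y axis) for each tested gene (points) of 4 goblet cell lists (x axis), in control and IUGR rats, with black lines at the medians. The spread is wide among the described genes and the other secreted products, and narrower in the machinery and transcription factor lists. In IUGR rats the transcription factors run from -0.66 (Creb3l1) to 0.70 (Klf4). Among the other secreted products Retnla, detected on 5 of 6 CND and 4 of 6 RND arrays, lies at 7.50 and 7.004.

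Markers of other cells also differed between diets. The log2 of the summed level of 12 T and natural killer cell markers was 8.78 to 10.10 in CND, 10.45 to 12.45 in CHFD, 9.25 to 11.03 in RND and 11.08 to 11.65 in RHFD, and 7 of 12 and 1 of 12 were called higher, beside 1.3% and 0.883% of all probes. All 12 differences were positive in both diet comparisons, with medians of 1.46 (CHFD against CND) and 1.11 (RHFD against RND). Whether the 2 comparisons differ was not tested for the list. Cd4, Cd5 and Trat1 of this list were detected on no array. The same sum over 6 macrophage and dendritic cell markers was 9.76 to 11.11 in CND, 11.44 to 12.22 in CHFD, 10.56 to 11.45 in RND and 11.30 to 12.09 in RHFD, with 4 of 6 called higher in control rats and 3 of 6 in IUGR rats and medians of 1.30 and 1.34, and Cd163, Adgre1 and Mrc1 were detected on no array. The part of these cells in the levels of the goblet cell products was not tested.

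Of 5 tested tuft cell markers 2, Dclk1 and Plcg2, were called higher in each diet comparison, with differences of 1.05 and 1.62 for Dclk1 and 1.18 and 1.59 for Plcg2. Beside the counts in this paragraph, 1.3% of all tested probes were called in control rats and 0.883% in IUGR rats. The list of type 2 cytokines and receptors had 4 tested genes and 0 calls, and Il13, Il25, Il9, Il13ra2, Il1rl1 and Gata3 were detected on no array. Of 8 tested enteroendocrine markers, neurotensin (Nts) was called higher in control rats, and Nts, Chga and Chgb in IUGR rats. Nts was detected on 0 of 12 chow arrays and on all 12 high-fat arrays, through which it passed the filter. Its calls are therefore descriptions and not tests. Nts was at least 2.29-fold higher in CHFD and at least 2.47-fold higher in RHFD. Of 7 Paneth and small intestine markers 1 was called lower in each, of 10 absorptive colonocyte markers 1 was called lower in control rats, and of 5 mast cell and granulocyte markers 1 was called higher in control rats. Membrane mucins, acinar, B and plasma cell and stromal markers had 0 calls among 1 or 2 tested genes each. The part of tuft and enteroendocrine cells in the levels of the goblet cell products was not tested either. In the comparisons of birth status and in the interaction, 0 genes of these lists were called in limma.

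The 3 genes most alike to each product across samples were ranked by Pearson's r over 7482 probes of named genes, after removal of the chip effect, as a description. A rank over 20 samples includes the difference between diets, and for Itln1, Spink4, Reg4 and Tff3 an r is given for the chow samples alone. Retnla, Retnlb and Pon3 ranked first for Itln1 over all samples, and over the 12 chow samples Mgat2 (r = 0.89), Dag1 (r = 0.80) and Retnla (r = 0.79) did. Over 20 samples, Gsn, Plcg2 and Clca1 were most like Tff3, and over the 12 chow samples Gsn (r = 0.92), F5 (r = 0.92) and Scnn1b (r = 0.89).

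For Agr2 these were Nans (r = 0.89), an enzyme of sialic acid synthesis, Slc1a5 (r = 0.88) and Sord (r = 0.86) over 20 samples, and Dynll1 (r = 0.93), Syt7 (r = 0.92) and Egf (r = 0.91) on chow. For Zg16 they were Ndel1 and Cdc42ep3 (both r = 0.81) and Asnsd1 (r = 0.80) over 20 samples, and Rab2a (r = 0.93), Bcl6 (r = 0.90) and Clca1 (r = 0.89) on chow. Clca1 thus stood in the first 3 for Tff3 over 20 samples and for Zg16 over the chow samples.

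For Spink4 they were Fdft1, an enzyme of sterol synthesis, Fam3b and Akr1e2 over 20 samples, and Ttc5 and Lars2 (both r = 0.83) and Sart1 (r = 0.81) on chow. For Reg4 they were Cd86, Serp2 and Spdl1 over 20 samples, and Ctdspl, Lrrc23 and Baat (each r = 0.81) on chow. Several of the probes named as alike are dim, beside median array signals of 92 to 112. Median raw intensities were 109 for Cd86, 103 for Serp2, 101 for Lrrc23, 102.5 for Baat and 108.5 for Mgat2. They were 105 for F5, 110 for Lars2 and 113 for Syt7. The points share the array, its chip and its normalization.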

How the data were processed

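Rat colonic epithelial cells were measured on 24 Illumina arrays. The deposited table holds a raw intensity and a detection p-value for each of 22523 probes per array, per the file headers, without scaling between arrays. GenomeStudio is named in the submitters' processing notes, and its version is not given in the sources used here. The authors' deposited series matrix, whose intensities are linear with column medians from 100.2083 to 100.4167, served as an alternative.

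The neqc function (limma 3.58.1, R 4.3.3, offset 16) corrected the background, scaled arrays by quantiles and took log2, with the negative control level inferred from the detection p-values. A probe was tested where its detection p-value was under 0.05 on 6 arrays or more. The model in limma had the 4 groups and the chip, with arrays of 1 title number as a random block (statmod 1.5.0, correlation 0.812), and 5 comparisons were adjusted separately over all probes. Probe symbols came from the platform annotation and positions from RefSeq on GRCr8. Correlations used 100000 permutations (scipy 1.17.1), and the code was tested on simulated data. The precision is limited by the number of arrays.

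The genes and lists were chosen with earlier results of these data known. The text names every gene of the set, up to 4 called genes per list, and the 3 genes most alike to each. Transcription factors, secretory machinery, Clca1, Reg3b and Reg3g were further named after their values were seen.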

Additional observations from a re-analysis of the deposited data

Results flagged for a closer look

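In the RND group the level of Agr2 in RND 39B was 14.04, while the next highest of the 6 samples read 13.47. The gap was 0.664 of the range of the group, above Dixon's critical value for 6 samples. Chance alone marks about 1 in 20 groups in this way, and 18 groups were examined. The same sample had the highest Tff3 and Zg16 levels of its group.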

How the results depend on the processing

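With 3 RHFD samples and 2 chips, the diet differences of Spink4 and Reg4 rest on few samples. Nothing is read from the counts of members past the threshold between diets, since the members were chosen with these differences known. Without RHFD 21B, 2 members (Itln1 and Spink4) passed the threshold in both diet comparisons. In IUGR rats 2 members (Itln1 and Reg4) passed without CHFD 28B, CND 18A or CND 38B, without the chip term, with arrays of a title number as independent, and in a fit of the groups compared alone. Leaving out 1 sample thus gave 1 to 2 members in each diet comparison. On chip 2 alone 0 members passed in either, where in all 5 probes (control) and 31 probes (IUGR) passed. Over all tested probes the count in IUGR rats was 90, against 318 with arrays as independent, 30 with arrays of a title number averaged, 12 on chip 1, 17 without RHFD 3A and 8 without RHFD 25B. In control rats it was 132, against 250 with arrays as independent and 198 without RND 17B. The number of correlated pairs was 0 on chip 1 and 0 on chip 2, where 6 samples limit the test. No paired analysis was possible because the groups share no title number.

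In the comparisons of birth status and the interaction 49 signs turned, 0 of them past the threshold, and the cause was not tested. Between diets the sign of Reg4 turned in control rats on chip 2 (-0.23), and that of Zg16 in IUGR rats 3 fits, on chip 1 (0.15) and without RHFD 3A (0.0447) or RND 39B (0.0386). Under median scaling, which shifted the median of all probes by -0.10 in both diet comparisons, the birth status difference on chow was 0.0656 for Tff3 and 0.18 for Agr2, and the interaction -0.0159 for Spink4 and -0.090 for Agr2. With arrays as independent the interaction was -0.0197 for Spink4 and 0.031 for Tff3. On chip 1 the birth status difference on chow was 0.64 for Reg4, that on high-fat diet -0.46 for Spink4, 0.0435 for Tff3, -0.27 for Agr2 and 0.11 for Zg16, and the interaction -0.0177 for Reg4, -1.16 for Spink4, 0.47 for Tff3 and -0.0566 for Agr2. On chip 2 the birth status difference on chow was 0.22 for Tff3 and 0.19 for Agr2, and the interaction -0.0876 for Zg16. Leaving out 1 sample, the difference on high-fat diet ranged from -0.20 to 0.18 for Itln1, -0.0539 to 1.51 for Reg4, -0.82 to 1.52 for Spink4, -0.50 to 0.11 for Tff3, -0.14 to 0.20 for Agr2 and -0.21 to 0.0512 for Zg16. On chow it ranged from -0.38 to 0.0522 for Tff3 and -0.12 to 0.0502 for Agr2, and the interaction from -1.23 to 1.11 for Spink4, -0.39 to 0.25 for Tff3 and -0.12 to 0.21 for Agr2.

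Under the other alternatives (no background correction, offset 50, detection p under 0.01, no filter and the deposited matrix) 0 signs turned in these comparisons and the counts of passing members were the same.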
